A study of Mus musculus with 9 samples.

Results

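The insulin-like growth factor genes described here encode the ligands IGF1 and IGF2, the IGF2 receptor, and the binding proteins IGFBP1 to IGFBP7. They are Igf1, Igf2, Igf2r and Igfbp1 to Igfbp7, 10 genes in all. Members were chosen by name: every probe set (the set of short probes that reads 1 transcript) whose single gene symbol in the platform's table was 1 of these was taken. This gave 24 of the 45037 probe sets that were not controls. For gene-level tests each gene was read by its probe set with the highest mean over all arrays, and 7 of the 10 genes passed a filter on low signal, against 12735 of 18193 genes in all. A further probe set that names Igf2r together with another gene was left out.

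All cells were 3T3-L1, a line of mouse preadipocytes that turns into fat cells when induced, and all were mature when virus was added. The 3 groups differed in the lentivirus they received: a scrambled hairpin as the control, or hairpin 1 or hairpin 2 against Ebf1. EBF1 is a DNA-binding protein that regulates both B lymphocyte and fat cell genes. Every group, the control included, went through 3 to 4 rounds of infection and at least 8 days in puromycin at 5 µg/ml before RNA was taken, so no group shows uninfected cells. Each group has 3 arrays, which the labels number as repeats without saying whether the cultures were separate. What the p-values measure is thus the spread of these arrays, perhaps only technical. Each hairpin and the control are also a single construct in a single cell line.

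IGF1 and IGF2 are secreted peptides that signal through the IGF1 receptor and, with lower affinity, through insulin receptors. The IGF2 receptor is a mannose 6-phosphate receptor that takes up and degrades IGF2 and also sorts lysosomal enzymes. The binding proteins hold IGFs in blood and tissue, and proteases release the ligands from them. IGF1 is made by fat cells under growth hormone, and IGF signalling promotes the differentiation of preadipocytes, 3T3-L1 included.

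The values are log2 signals between 3.90 and 14.9998, with array medians between 6.31 and 6.38. Ebf1 itself read 10.19 ± 0.10 in the scrambled group (mean ± SD of 3 arrays, here and for every mean below). It read 9.44 ± 0.11 in the hairpin 1 group and 8.94 ± 0.24 in the hairpin 2 group, so the targeted gene was lower in both. Adipoq, the adiponectin gene and a marker of mature fat cells, read 14.82 ± 0.02 in the scrambled group. Fabp4, a fatty acid carrier, read 14.89 ± 0.03. Differences are compressed so near the maximum of 14.9998. Of 11 adipocyte markers tested, hairpin 1 gave 1 higher and 1 lower and hairpin 2 gave 0 higher and 3 lower. The summed linear signal of that list was 144303 to 148756 with scrambled, 143606 to 146503 with hairpin 1 and 141326 to 143240 with hairpin 2. Of 7 preadipocyte and fibroblast markers tested, 6 were higher with hairpin 1. With hairpin 2, 5 were higher and 1 lower (Dlk1, named after its value was seen). The summed linear signal of this list was 19222 to 20890 over the scrambled arrays, 27152 to 28380 with hairpin 1 and 28438 to 29177 with hairpin 2. Of 10 macrophage and leukocyte markers, 5 were above the signal filter of 5.72, and hairpin 1 gave 0 higher and 1 lower and hairpin 2 gave 1 higher and 1 lower. Their summed linear signal was 1794 to 2739 with scrambled, 1443 to 1617 with hairpin 1 and 1187 to 1568 with hairpin 2. The markers called, named after their values were seen, were Laptm5, a lysosomal gene of blood cells, which differed by -1.22 and -1.82, and Cd68, a macrophage gene, which differed by 1.18 with hairpin 2. Of 7 endothelial markers 2 were above the filter, 0 were called, and their summed signal was 344 to 360, 329 to 358 and 345 to 358. Ptprc, a defining gene of leukocytes, read 4.76 to 4.91 in the group means, and Pecam1, which marks endothelium, 5.12 to 5.26, both below the filter. The part of these cell marker lists in the differences of the IGF genes was not tested. Over all genes tested, 23.7% were called higher and 9.23% lower with hairpin 1, and 21.5% and 13.3% with hairpin 2, and the counts of any list stand against these shares.

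EBF1 binds a palindrome whose core is CCCNNGGG with a T before it and an A after it. This full core and the inner CCCNNGGG were searched on both strands in the RefSeq promoter windows of the GRCm38.p6 mouse assembly. The core of interferon response elements, which is GAAA repeated after a gap of 2 bases, was searched beside them. All 10 genes had at least 1 window, 14 windows in all. The full core occurred in 0 of the 14 windows, against 0.904% of 32851 windows in the table. CCCNNGGG occurred in 3 of 14 (13.7% of all windows), and the interferon element core in 1 of 14, for Igf2 (3.44% of all windows). Upstream of the start, CCCNNGGG was found for Igf2r and Igfbp7, and the match for Igf1 lay past its start. The 250 bases before the start of Igf2r (chr17:12769707-12769956, minus strand) and Igfbp7 (chr5:77408046-77408295, minus strand) are shown 5′ to 3′ on the gene's strand because they are the member promoters with such a match upstream. Capitals mark the match, which ends 166 bases before the start in Igf2r and 63 bases before it in Igfbp7.
Igf2r: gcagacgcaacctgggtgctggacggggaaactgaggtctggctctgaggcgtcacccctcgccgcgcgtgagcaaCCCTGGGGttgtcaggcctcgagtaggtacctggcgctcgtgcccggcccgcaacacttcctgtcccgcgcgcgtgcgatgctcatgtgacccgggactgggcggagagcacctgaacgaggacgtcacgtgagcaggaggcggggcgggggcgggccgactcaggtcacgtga
Igfbp7: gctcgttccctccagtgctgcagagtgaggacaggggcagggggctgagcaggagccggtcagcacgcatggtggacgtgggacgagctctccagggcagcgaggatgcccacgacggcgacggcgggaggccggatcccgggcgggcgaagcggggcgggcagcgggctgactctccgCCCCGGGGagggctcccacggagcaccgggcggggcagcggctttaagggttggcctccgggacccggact
A match describes the letters in these windows and is not evidence of binding.

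Igf2, Igf2r and Igfbp6 were higher with each hairpin than with the scrambled control. Igf2 rose 1.98-fold with hairpin 1 and 1.34-fold with hairpin 2, Igfbp6 1.49-fold and 1.22-fold, and Igf2r 1.31-fold and 1.32-fold. The hairpin 2 call of Igfbp6 was lost when scrambled array 2 or scrambled array 3 was left out. Igfbp4 was also called higher with hairpin 1, by 1.13-fold, a call lost in 9 of the 18 alternatives listed in the closing section. With hairpin 2, Igf1 was lower by 1.25-fold and Igfbp5 by 1.78-fold on the probe set that read each gene. No other Igf1 probe set was called. The other Igfbp5 probe set was called higher (0.52), so no direction is given for Igfbp5. Igfbp7 was called with neither hairpin on its brightest probe set, which read near the array's maximum, and another of its probe sets was called higher with hairpin 2 (0.32). The genes Igfbp1, Igfbp2 and Igfbp3 were below the filter.

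Of the 7 genes tested, limma called 4 higher and 0 lower with hairpin 1 at a Benjamini-Hochberg adjusted p below 0.05. Over all 12735 genes tested, 23.7% were called higher and 9.23% lower in that comparison, or 33.0% either way. Hairpin 2 gave 3 higher and 2 lower, against 21.5% and 13.3% of all genes, or 34.8% either way. Called higher with both hairpins were 3 of the 7, against 13.7% of all genes, and called lower with both were 0 of the 7, against 4.87%. In the mean of both hairpins against scrambled, 3 members were higher and 2 lower, against 23.8% and 10.7%, or 34.6% either way. The median log2 difference of the 7 members was 0.18 with hairpin 1 and 0.03 with hairpin 2, beside 0.07 and 0.02 over all genes tested. After quantile normalization of the deposited values, calls over all genes in the hairpin 1 comparison went from 72.0% higher to 59.0% higher, and in the mean of both hairpins from 68.9% to 58.5%.

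**Figure D1:**
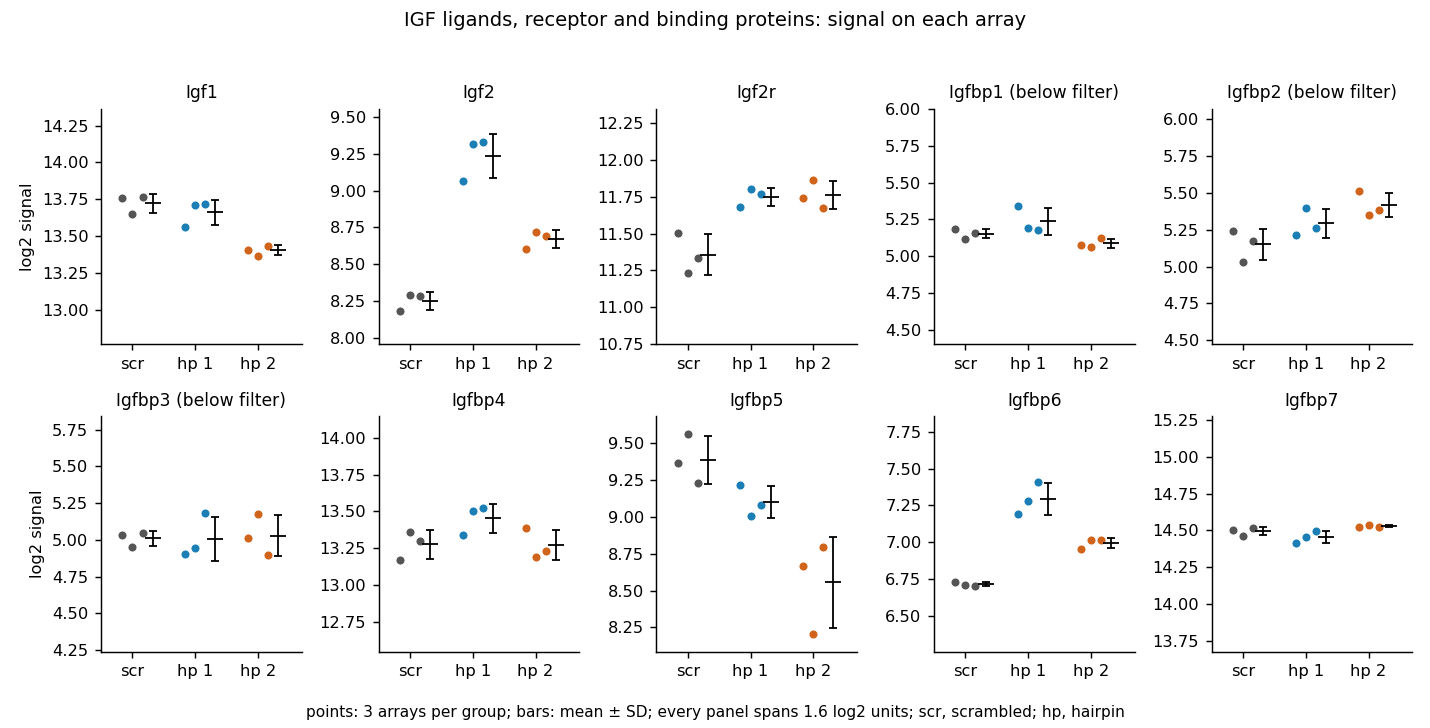
Log2 signal of the 10 genes on each array (points, 3 arrays per group) with group mean and SD (bars), each panel spanning the same number of log2 units on the vertical axis. The hairpin arrays of Igf2 and Igfbp6 all lie above the scrambled arrays and the 2 hairpin groups are apart, whereas the hairpin groups of Igf2r overlap; Igfbp7 varies by little in any group.

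Igf2 encodes a growth factor that is abundant in the fetus and is imprinted, being read mainly from the paternal copy. On its brighter probe set (1448152_at) the scrambled arrays read 8.18, 8.29 and 8.28 on the log2 scale. With hairpin 1 the signal was 9.07, 9.32 and 9.33, and with hairpin 2 it was 8.60, 8.72 and 8.69. The 3 groups did not overlap, and hairpin 2 lay between the control and hairpin 1. The log2 difference from scrambled was 0.99 with hairpin 1 (SE 0.0936, limma adjusted p = 9.67e-07) and 0.42 with hairpin 2 (adjusted p = 0.00218). Hairpin 2 was below hairpin 1 by -0.57 (adjusted p = 0.00028). Ebf1 itself read lower with hairpin 2 than with hairpin 1, and the part of its level in this order was not tested. In RNA from whole cultures, a change in the amount per cell and a change in the share of cells that make a transcript cannot be told apart. The summed signal of the fibroblast marker list was higher in both hairpin groups. Dlk1, a gene of that list, was higher with hairpin 1 (0.70) but lower with hairpin 2 (-0.83). The part of the list in the rise of Igf2 was not tested.

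A second Igf2 probe set (1415931_at) lay near the floor of the array. It averaged 4.60 ± 0.10 with scrambled, 4.86 ± 0.13 with hairpin 1 and 4.73 ± 0.09 with hairpin 2. In the fit over all probe sets it was called higher with hairpin 1 (0.26, adjusted p = 0.0368) and not with hairpin 2 (0.13, adjusted p = 0.358). The hairpin 1 call was lost without scrambled array 2 (adjusted p = 0.136) or 3 (0.138), without hairpin 1 array 2 (0.0953) or 3 (0.169) and without hairpin 2 array 1 (0.0509), over a range of 0.00533 to 0.169 in 15 alternatives. Equal array medians (0.063), no variance trend (0.0698) and fitting only the groups compared (0.0537) also ended it. Averaging both Igf2 probe sets gave 0.62 and 0.27 for the 2 hairpins, still higher in both (adjusted p = 3.58e-05 and 0.0107). Over all 18 alternatives the adjusted p for Igf2 stayed at or below 3.58e-05 in the hairpin 1 comparison (lowest 4.66e-10) and at or below 0.0165 in that of hairpin 2 (lowest 0.000329).

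Igf1 encodes the other ligand, made by fat cells as well as by liver. Its brightest probe set (1452014_a_at) read 13.76, 13.65 and 13.76 with the scrambled hairpin. The hairpin 1 arrays read 13.56, 13.71 and 13.72, within or just below the range of the control. On the hairpin 2 arrays the signal was 13.41, 13.37 and 13.43, below every array of both other groups. The difference from scrambled was -0.06 with hairpin 1 (95% interval -0.16 to 0.04, limma adjusted p = 0.36) and -0.32 with hairpin 2 (SE 0.0479, adjusted p = 6.75e-05). Hairpin 2 was below hairpin 1 by -0.26 (adjusted p = 0.000743).

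None of the other 3 Igf1 probe sets was called lower with hairpin 2. With hairpin 2 they differed from scrambled by -0.13 (1419519_at, adjusted p = 0.216), 0.02 (1434413_at, adjusted p = 0.94) and 0.01 (1437401_at, adjusted p = 0.982) in the fit over all probe sets. On 1419519_at the hairpin 2 arrays read 12.19, 12.07 and 12.21, all below the scrambled arrays at 12.27, 12.37 and 12.22. On 1434413_at the hairpin 2 arrays read 11.74, 11.93 and 12.03 against 11.97, 11.87 and 11.80 for scrambled, so the groups overlapped. With hairpin 1 the same 3 probe sets differed by -0.16, -0.21 and -0.14, and none was called (adjusted p = 0.124, 0.118 and 0.336). With hairpin 1, 1419519_at was called lower after quantile normalization (adjusted p = 0.0311) and with array weights (0.0407). In the mean of both hairpins it differed by -0.15 (adjusted p = 0.0988) and was called lower after quantile normalization (0.0275), with equal array medians (0.0469), with array weights (0.0323) and without hairpin 1 array 2 (0.0381), over a range of 0.0275 to 0.396. With all 4 probe sets averaged, Igf1 was no longer called lower with hairpin 2 (-0.11, adjusted p = 0.21, range over 18 alternatives 6.03e-06 to 0.21), and the difference between the hairpins turned to 0.035 (adjusted p = 0.728). Probe sets of a gene can read different transcript ends or splice forms, and which of these the Igf1 probe sets read was not examined.

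Igf2r encodes the receptor that removes IGF2 from the cell surface. On its brighter probe set (1424112_at) scrambled arrays read 11.51, 11.23 and 11.33. Signals were 11.68, 11.80 and 11.77 with hairpin 1, and 11.74, 11.87 and 11.68 with hairpin 2. All 6 hairpin arrays were above all 3 control arrays, and the hairpin groups overlapped. The rise was 0.39 with hairpin 1 (SE 0.0776, limma adjusted p = 0.00108) and 0.41 with hairpin 2 (adjusted p = 0.000635). The hairpins differed by 0.01, with a 95% interval of -0.15 to 0.18 (adjusted p = 0.932). Igf2r is thus the member whose fitted change was closest to equal in the 2 groups among those called with both.

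A second Igf2r probe set (1424111_at) moved the same way. It averaged 9.06 ± 0.13 with scrambled, 9.53 ± 0.16 with hairpin 1 and 9.58 ± 0.23 with hairpin 2, with no control array reaching the hairpin arrays. It was higher by 0.47 with hairpin 1 (adjusted p = 0.0154) and by 0.52 with hairpin 2 (adjusted p = 0.007). The hairpin 1 call on this probe set was lost without scrambled array 2 (adjusted p = 0.0684) or 3 (0.073) and without hairpin 1 array 2 (0.0756) or 3 (0.0625), over a range of 0.00271 to 0.0756. On the brighter probe set both calls held in all 15 alternatives of the same fit, with adjusted p up to 0.0233 and 0.0141.

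**Figure D2:**
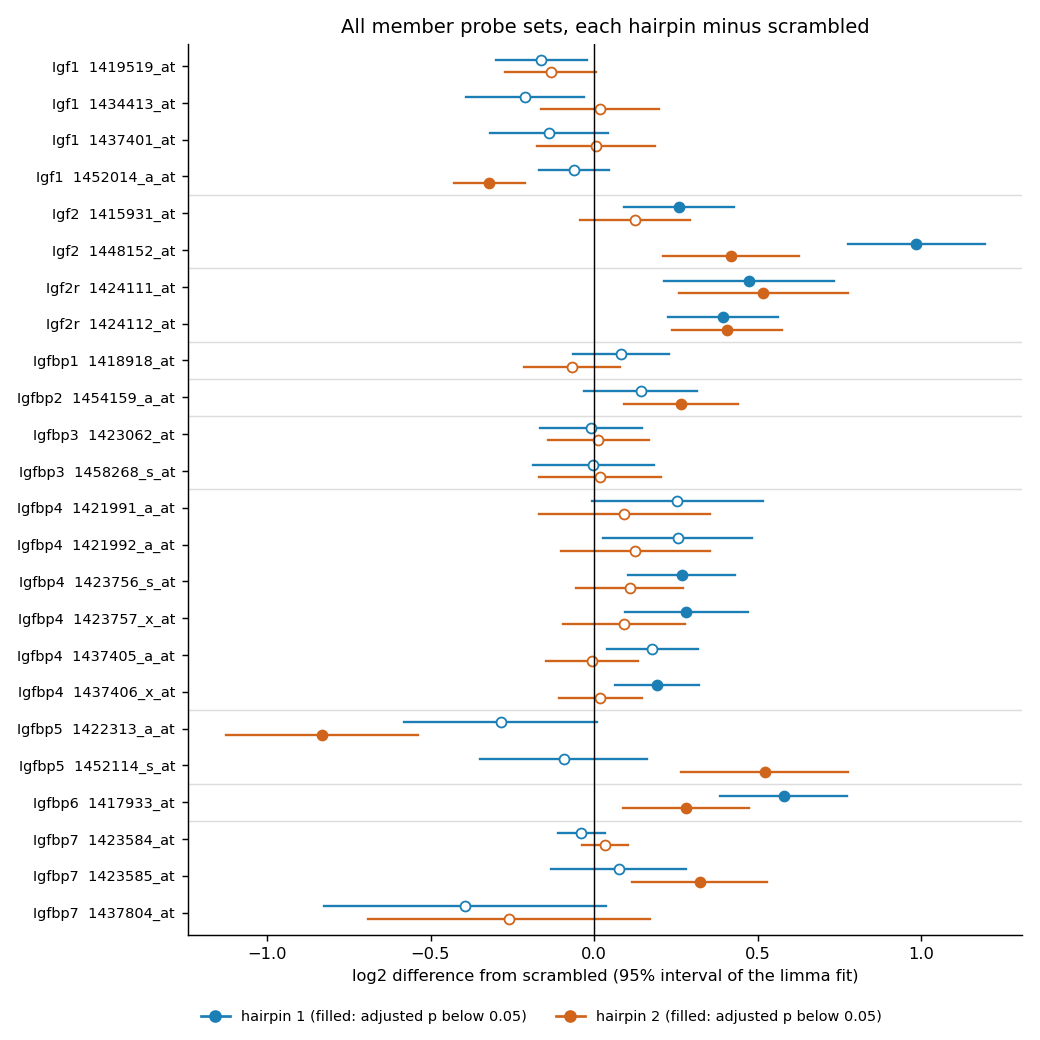
Log2 difference from scrambled of all 24 probe sets of the 10 genes, with the 95% interval of the limma fit over all probe sets; filled points have an adjusted p below 0.05. Both Igf2r probe sets lie to the right of 0 with both hairpins, and the 2 Igfbp5 probe sets lie on opposite sides of 0 with hairpin 2.

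Over the 24 probe sets, 8 were called higher and 0 lower with hairpin 1, where 10.4% and 4.64% of all 45037 probe sets were called. Hairpin 2 gave 7 higher and 2 lower, against 10.3% and 7.17%. The mean of both hairpins gave 4 higher and 2 lower, against 11.2% and 5.81%. Probe sets of a gene read the same RNA and are not independent of each other: 6 of the 24 are of Igfbp4, of which 3 were called higher with hairpin 1.

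Igfbp6 encodes a binding protein that prefers IGF2 over IGF1. Its only probe set (1417933_at) read 6.73, 6.71 and 6.70 on the scrambled arrays. It rose to 7.19, 7.28 and 7.41 with hairpin 1 and to 6.95, 7.02 and 7.02 with hairpin 2. As for Igf2, the groups did not overlap and hairpin 2 lay in between. The difference was 0.58 with hairpin 1 (SE 0.0848, limma adjusted p = 8.08e-05) and 0.28 with hairpin 2 (adjusted p = 0.0161), and hairpin 2 was below hairpin 1 by -0.30 (adjusted p = 0.0149). The hairpin 2 call was lost without scrambled array 2 (adjusted p = 0.0518) or 3 (0.054), over a range of 0.00463 to 0.054 in 17 alternatives. The difference between the hairpins was lost without hairpin 1 array 3 (0.0827) or hairpin 2 array 1 (0.0526), over a range of 0.000192 to 0.0827. In the fit over all probe sets the same differences stood close to the threshold, at adjusted p = 0.0435 for hairpin 2 and 0.0428 between the hairpins. There the hairpin 2 call was lost in 7 of 15 alternatives, over a range of 0.0152 to 0.127. These included leaving out scrambled array 1 (0.111), 2 (0.12) or 3 (0.127) and hairpin 2 array 1 (0.0666), 2 (0.109) or 3 (0.0844). The difference between the hairpins was lost there in 12 of 15, over a range of 0.0138 to 0.176. It was lost without scrambled array 1 (0.0682), 2 (0.0683) or 3 (0.0691), hairpin 1 array 2 (0.0838) or 3 (0.176), and hairpin 2 array 1 (0.121), 2 (0.0806) or 3 (0.063). Quantile normalization (0.0541), equal array medians (0.0576) and fitting only the groups compared (0.116) also ended it. The hairpin 1 call held in all 15, with adjusted p up to 0.00379.

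Igfbp5 encodes a binding protein that attaches to extracellular matrix. Its 2 probe sets moved in opposite directions with hairpin 2. On the brighter one (1422313_a_at) the scrambled arrays read 9.37, 9.56 and 9.23. The hairpin 1 signals were 9.22, 9.004 and 9.08 and those of hairpin 2 were 8.66, 8.20 and 8.80. Each group lay below the one before it without overlap, though the gap between scrambled and hairpin 1 was small. The difference was -0.29 with hairpin 1 (limma adjusted p = 0.116) and -0.83 with hairpin 2 (SE 0.133, adjusted p = 0.00013), and hairpin 2 was below hairpin 1 by -0.55 (adjusted p = 0.00578). The hairpin 1 difference was called without hairpin 2 array 2 (adjusted p = 0.0416), the lowest array of its group, and with array weights (adjusted p = 0.00819), over a range of 0.00819 to 0.369.

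The other Igfbp5 probe set (1452114_s_at) read 7.38, 7.17 and 7.08 with scrambled. Hairpin 1 gave 6.99, 7.15 and 7.20, overlapping the control, and hairpin 2 gave 7.52, 7.74 and 7.93, above every other array. The difference was -0.09 with hairpin 1 (adjusted p = 0.682) and 0.52 with hairpin 2 (adjusted p = 0.00593), in the fit over all probe sets. In that same fit the brighter probe set differed by -0.83 with hairpin 2 (adjusted p = 0.000484), so both were called and with opposite signs. With both averaged, Igfbp5 was not called with hairpin 2 (-0.16, adjusted p = 0.244, range over 18 alternatives 1.8e-05 to 0.244), and the difference between the hairpins turned to 0.034 (adjusted p = 0.83). No direction for total Igfbp5 mRNA can therefore be given from these probe sets. In the array maker's naming the suffix of the second probe set marks probes that are shared by several transcripts.

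**Figure D3:**
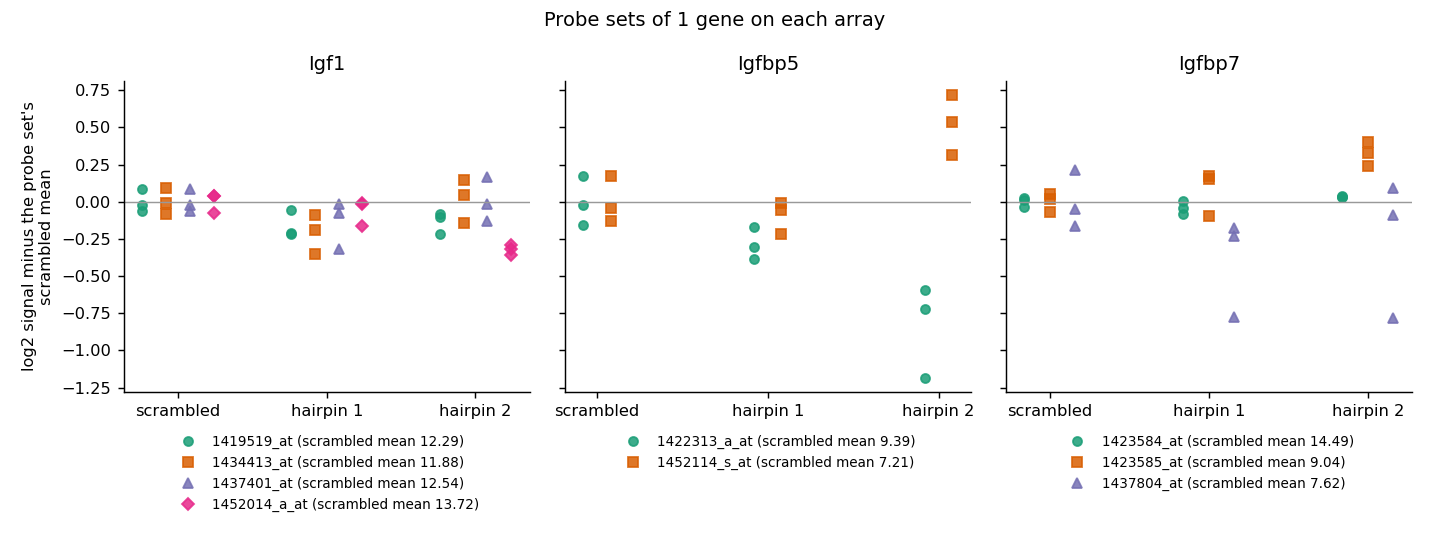
Log2 signal of each probe set of Igf1, Igfbp5 and Igfbp7 on each array, minus that probe set's own scrambled mean (points, 3 arrays per group). With hairpin 2 the Igfbp5 probe sets part in opposite directions, with fitted differences of -0.83 and 0.52, and 1 of the 4 Igf1 probe sets lies below the rest.

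Igfbp4 encodes an inhibitory binding protein that the protease PAPP-A cleaves. Its brightest probe set (1437405_a_at) read 13.17, 13.36 and 13.30 with scrambled. The values were 13.34, 13.50 and 13.52 with hairpin 1 and 13.38, 13.19 and 13.23 with hairpin 2, so all 3 groups overlapped. The difference was 0.18 with hairpin 1 (limma adjusted p = 0.0392) and -0.01 with hairpin 2 (95% interval -0.14 to 0.13, adjusted p = 0.957). The hairpin 1 call was lost in 9 of 18 alternatives, over a range of 0.000222 to 0.194. It was lost without scrambled array 1 (adjusted p = 0.194) or 3 (0.0674), without hairpin 1 array 2 (0.135) or 3 (0.15) and without hairpin 2 array 3 (0.0517). It was also lost with no filter (0.0562), quantile normalization (0.0605), equal array medians (0.103) and no variance trend (0.129).

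All 6 Igfbp4 probe sets had a positive fitted difference with hairpin 1, between 0.18 and 0.28, and 3 of them were called: 1423756_s_at (0.27, adjusted p = 0.0272), 1423757_x_at (0.28, adjusted p = 0.0427) and 1437406_x_at (0.19, adjusted p = 0.0413). Each of these calls was lost without scrambled array 1, at adjusted p = 0.13, 0.226 and 0.201, with differences of 0.16 and 0.19 on the first and second. Each was also lost without hairpin 1 array 2 (0.11, 0.133 and 0.097) or 3 (0.103, 0.198 and 0.188). All 3 calls were lost as well after quantile normalization (0.071, 0.0796 and 0.135), with equal array medians (0.0663, 0.0796 and 0.105), with no variance trend (0.076, 0.0795 and 0.122) and with only the groups compared (0.0644, 0.086 and 0.0789). Calls were also lost without scrambled array 2 (0.0634) and hairpin 2 arrays 1, 2 and 3 (0.0589, 0.052 and 0.0601) on 1423757_x_at, and without scrambled array 3 (0.125) and hairpin 2 arrays 1 and 3 (0.0551 and 0.059) on 1437406_x_at. Ranges over 15 alternatives were 0.0114 to 0.13, 0.00542 to 0.226 and 0.00735 to 0.201. Scrambled array 1 was the lowest of the control arrays on all 6 probe sets. The called probe sets have the suffix _s_at or _x_at. In the same limma fit the others, all with the suffix _a_at, differed by 0.25, 0.26 and 0.18 with hairpin 1. They were not called (adjusted p = 0.2, 0.135 and 0.0849). With hairpin 2, 0 of the 6 were called in either direction, and their differences lay between -0.01 and 0.13.

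Igfbp7 encodes a secreted protein that binds IGFs weakly. Its brightest probe set (1423584_at) read 14.50, 14.46 and 14.52 with scrambled, 14.41, 14.46 and 14.50 with hairpin 1, and 14.53, 14.53 and 14.52 with hairpin 2. These values lie close to the array's maximum of 14.9998, where differences are compressed. The difference was -0.04 with hairpin 1 (95% interval -0.10 to 0.03, limma adjusted p = 0.363) and 0.03 with hairpin 2 (-0.03 to 0.10, adjusted p = 0.452). A second probe set (1423585_at) averaged 9.04 ± 0.06, 9.12 ± 0.15 and 9.36 ± 0.08 in the scrambled, hairpin 1 and hairpin 2 groups. It was called higher with hairpin 2 (0.32, adjusted p = 0.0301), without overlap of the control arrays. That call was lost without scrambled array 1 (adjusted p = 0.0683), 2 (0.0806) or 3 (0.131) and without hairpin 2 array 2 (0.11) or 3 (0.07), over a range of 0.00855 to 0.131. The remaining probe set (1437804_at) differed by -0.39 and -0.26 and was not called (adjusted p = 0.231 and 0.488).

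Igfbp1, whose product is made mainly by liver, read 5.15 ± 0.03, 5.24 ± 0.09 and 5.09 ± 0.03 in the scrambled, hairpin 1 and hairpin 2 groups. Igfbp3, which encodes the main carrier of IGFs in blood, read 5.01 ± 0.05, 5.01 ± 0.15 and 5.03 ± 0.14 on its brighter probe set. Igfbp2, another circulating binding protein, read 5.24, 5.03 and 5.18 with scrambled, 5.22, 5.40 and 5.26 with hairpin 1, and 5.51, 5.35 and 5.39 with hairpin 2. These genes were below the filter of 5.72, so their differences are compressed by the floor of the array. In the fit over all probe sets Igfbp2 was called higher with hairpin 2 (0.27, limma adjusted p = 0.0336). That call was lost without scrambled array 2 (adjusted p = 0.166) or 3 (0.0728) and without hairpin 2 array 1 (0.129) or 3 (0.0534), over a range of 0.0128 to 0.166. The probe sets of Igfbp1 and Igfbp3 were called with neither hairpin, with differences between -0.07 and 0.08.

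The hairpins were also compared with each other, since Ebf1 read 0.50 log2 units lower with hairpin 2. Of the 7 genes, 0 were higher and 5 lower with hairpin 2 than with hairpin 1 (Igf1, Igf2, Igfbp4, Igfbp5 and Igfbp6), against 11.6% higher and 17.4% lower over all genes tested, or 29.1% either way. Over the 24 probe sets 1 was higher and 4 were lower, against 4.91% and 7.73%, or 12.6% either way. The median difference of the 7 genes was -0.26, beside -0.04 over all genes. With the probe sets of each gene averaged, 2 of the 7 were called lower (Igf2 and Igfbp6), beside 2018 over all genes tested in that setting. Igfbp6 has only 1 probe set, so averaging could not change its value. Igf1 turned to 0.035 and Igfbp5 to 0.034 with averaged probe sets, neither of them called. On the second Igfbp5 probe set hairpin 2 was called higher, by 0.62. Igfbp4 was lower by -0.18 (limma adjusted p = 0.0371) with overlapping groups, a call that was lost without hairpin 1 array 2 (0.126) or 3 (0.141) and without hairpin 2 array 2 (0.143) or 3 (0.122). It was lost too with the mean of its probe sets (0.157), no filter (0.0537), equal array medians (0.0732) and no variance trend (0.127), over a range of 0.004 to 0.157. The call for Igf2 held in all 18 alternatives (adjusted p 1.44e-06 to 0.00326). For Igfbp7 the difference of 0.07 was not called (adjusted p = 0.0912), except with equal array medians (adjusted p = 0.0152, range 0.0152 to 0.447).

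Among the 7 genes, Igf2 and Igfbp6 had the most similar pattern over the 9 arrays, with a Pearson r of 0.99. Igf1 and Igfbp5 had an r of 0.79 on their brightest probe sets, and Igf2r and Igfbp5 of -0.77. These describe 9 arrays in 3 groups, so most of each r comes from the differences between groups. Outside the members, the tested genes with the highest r to each called member were Pradc1 and Ccnd3 for Igf2 (both 0.99), Srgap2 (0.99) and Kctd10 (0.97) for Igf2r, and Rwdd4a (0.99) and Mrpl3 (0.98) for Igfbp6. For Igf1 they were Id1 and Ercc3 (both 0.98), for Igfbp4 Gatd1 (0.98) and Eif5a (0.97), and for Igfbp5 Farsb (0.99) and Plscr1 (0.98). Ccnd3, the cyclin D3 gene, differed from scrambled by 0.66 with hairpin 1 and 0.26 with hairpin 2. It was picked for its correlation with Igf2 on these arrays, so sharing the order of Igf2 follows from that choice. On the mouse map Igfbp2 and Igfbp5 are neighbours on chromosome 1, and Igfbp1 and Igfbp3 on chromosome 11.

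Of 3 genes for IGF and insulin-type receptors, 1 was higher and 0 lower with each hairpin. For this list and those that follow, the shares of all genes tested are 23.7% higher and 9.23% lower with hairpin 1 and 21.5% and 13.3% with hairpin 2. A list whose shares are near these shows no more than all genes do. Igf1r, the IGF1 receptor gene, read 7.61 ± 0.09 with scrambled, 7.93 ± 0.16 with hairpin 1 and 8.52 ± 0.04 with hairpin 2, and no arrays overlapped between groups. It was higher by 0.32 with hairpin 1 (limma adjusted p = 0.0176) and by 0.91 with hairpin 2 (adjusted p = 1.68e-06), and the hairpins differed by 0.59 (adjusted p = 0.000239), opposite in order to Igf2. Averaging its probe sets gave 0.53 with hairpin 2 and 0.23 between the hairpins. The hairpin 1 call was lost without scrambled array 1 (adjusted p = 0.0711) or 3 (0.0734), without hairpin 1 array 2 (0.0712) or 3 (0.0745) and after quantile normalization (0.0519), over a range of 6.39e-05 to 0.0745. Insr, the insulin receptor gene, differed by -0.08 and 0.03, and Insrr, a related receptor gene, by 0.02 and -0.07, none of them called.

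Of 18 receptor adaptor and signal transducer genes tested, 6 were higher and 1 lower with hairpin 1, and 4 higher and 4 lower with hairpin 2, with median differences of 0.04 and -0.06. Grb14, an adaptor that restrains insulin receptor signalling, rose by 0.53 with hairpin 1 and 0.57 with hairpin 2 (limma adjusted p = 0.00232 and 0.00111), or by 0.27 and 0.30 with its probe sets averaged. Map2k1, the MEK1 kinase gene, fell by 0.98 with hairpin 2 (adjusted p = 1.06e-08), whereas its hairpin 1 difference was -0.10 (adjusted p = 0.256). Pik3r1, a regulatory subunit of PI 3-kinase, fell by 0.31 and 0.43 (adjusted p = 0.00124 and 6.39e-05). With the probe sets of Pik3r1 averaged both calls were lost (-0.09 and -0.22, adjusted p = 0.436 and 0.054, ranges 3.68e-06 to 0.436 and 2.45e-06 to 0.054).

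Of 15 IGFBP protease and inhibitor genes tested, 5 were higher and 2 lower with hairpin 1, and 6 higher and 1 lower with hairpin 2, with median differences of 0.08 with each. Plat, which encodes tissue plasminogen activator, rose by 1.35 and 2.77 (limma adjusted p = 2.97e-08 and 1.62e-12), or by 0.69 and 1.36 with its probe sets averaged. Stc1, whose product stanniocalcin inhibits PAPP-A, rose by 1.39 and 0.95 (adjusted p = 5.37e-07 and 1.85e-05), or by 0.74 and 0.52 with probe sets averaged. Timp1, a metalloprotease inhibitor gene, rose by 0.37 and 1.10 (adjusted p = 0.0252 and 1.83e-06). The hairpin 1 call of Timp1 was lost without scrambled array 1 (0.103) or 2 (0.108), without hairpin 1 array 2 (0.117) or 3 (0.0981) and after quantile normalization (0.0514), over a range of 6.85e-05 to 0.117.

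Among the same proteases, 3 genes are named after their values were seen because their products cleave IGFBPs and they moved unlike each other. Pappa, which encodes the protease of IGFBP4, fell by 0.44 with hairpin 1 and 0.79 with hairpin 2 (limma adjusted p = 0.00668 and 3.61e-05). Without scrambled array 1 the first call was lost (-0.31, adjusted p = 0.0522, range 0.000247 to 0.0522). Pappa2, its paralog with activity toward IGFBP5, differed by 0.20 with hairpin 1 (adjusted p = 0.251) and rose by 1.24 with hairpin 2 (adjusted p = 8.82e-07). With array weights its hairpin 1 difference was called too (adjusted p = 0.0173, range 0.0173 to 0.513). Mmp2, a matrix metalloprotease gene, fell by 1.17 with hairpin 1 and rose by 1.27 with hairpin 2 (adjusted p = 3.22e-07 and 5.82e-08), and the hairpins differed by 2.44.

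Of 6 genes tested for secreted proteins related to IGFBPs, 5 were higher and 0 lower with hairpin 1, and 4 higher and 1 lower with hairpin 2. Their median differences were 0.80 and 0.46. Ccn1 and Ccn4, matricellular proteins with an IGFBP-like domain, rose by 1.27 and 1.04 and by 1.48 and 0.64 (limma adjusted p at most 4.19e-05), and averaging the probe sets of Ccn1 gave 0.67 with hairpin 2. Kazald1, another gene with such a domain, rose by 1.03 and 1.41 (adjusted p = 9.67e-07 and 1.25e-08). Igfals, named after its value was seen as the partner of IGFBP3 and IGF in blood, rose by 0.57 and 0.29 (adjusted p = 0.000312 and 0.0284). The hairpin 2 call of Igfals was lost without scrambled array 2 (0.139) or 3 (0.0686) and without hairpin 2 array 1 (0.0576), 2 (0.0614) or 3 (0.0854), over a range of 0.00343 to 0.139. The gene called lower with hairpin 2 was Ccn5 (-0.46, adjusted p = 0.00233), also named after its value was seen. Ccn5 was called higher with hairpin 1 (0.31, adjusted p = 0.0286), which was lost without any scrambled array (0.0796, 0.0856 and 0.0673), without hairpin 1 array 2 (0.21, adjusted p = 0.131) or 3 (0.0771) and after quantile normalization (0.0571), over a range of 0.000181 to 0.131.

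The IGF2 mRNA-binding proteins hold Igf2 transcripts among others. Igf2bp3 read 10.23 ± 0.04 with scrambled, 10.89 ± 0.08 with hairpin 1 and 10.95 ± 0.07 with hairpin 2, a rise of 0.66 and 0.72 (limma adjusted p = 7.02e-06 and 1.49e-06). Igf2bp1 differed by -0.03 with hairpin 1 (adjusted p = 0.871) and by -0.24 with hairpin 2 (adjusted p = 0.0847). With all its probe sets averaged the hairpin 1 difference of Igf2bp1 turned to 0.28 and was called higher (adjusted p = 0.00666, range 0.00666 to 0.979). Without hairpin 2 array 1 its hairpin 2 difference was called lower (-0.33, adjusted p = 0.0328, range 0.0328 to 0.567).

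Of 8 genes of the growth hormone axis, which drives Igf1, 2 were higher and 1 lower with hairpin 1, and 0 higher and 3 lower with hairpin 2, with median differences of 0.04 and -0.05. Ghr, the growth hormone receptor gene, differed by -0.05 with hairpin 1 (limma adjusted p = 0.45) and fell by 0.20 with hairpin 2 (adjusted p = 0.0049), or by 0.38 with its probe sets averaged. Cish, a target and inhibitor of the receptor, fell by 0.24 and 0.47 (adjusted p = 0.0242 and 0.000118), and the first call was lost without any 1 of the scrambled arrays (adjusted p = 0.0827, 0.0693 and 0.0822, range 0.00147 to 0.0827). Socs2, another inhibitor, rose by 0.26 with hairpin 1 (adjusted p = 0.0115), and its hairpin 2 difference was 0.11 (adjusted p = 0.276). That rise was lost without scrambled array 2 (adjusted p = 0.0631) and with probe sets averaged (0.09, adjusted p = 0.312, range 4.12e-05 to 0.312).

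Of 9 imprinted growth genes tested besides Igf2 and Igf2r, 4 were higher and 1 lower with hairpin 1, and 3 higher and 2 lower with hairpin 2, with medians of 0.12 and 0.06. Dcn, the decorin gene, rose by 1.42 and 1.46 (limma adjusted p = 3.09e-09 and 9.01e-10), and Peg3, a zinc finger gene, by 0.53 and 0.35 (adjusted p = 0.000201 and 0.00397), where averaging probe sets gave 0.33 for Peg3 with hairpin 1. Ndn, the necdin gene, fell by 0.60 with hairpin 2 (adjusted p = 0.00524), or by 0.32 with probe sets averaged. With hairpin 1 Ndn fell by 0.44 (adjusted p = 0.0339), a call that was lost without hairpin 1 array 2 (-0.21, adjusted p = 0.164) or 3 (0.0582) and without scrambled array 1 (0.0957) or 2 (0.0949). Averaging probe sets (-0.10, adjusted p = 0.291), dropping the trend (0.0632) and fitting only the groups compared (0.0607) also ended it, over a range of 0.000256 to 0.291. Dlk1, an inhibitor of fat cell differentiation that is named after its values were seen, rose by 0.70 with hairpin 1 and fell by 0.83 with hairpin 2 (adjusted p = 0.00647 and 0.00157), or 0.45 and -0.39 with probe sets averaged.

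**Figure D4:**
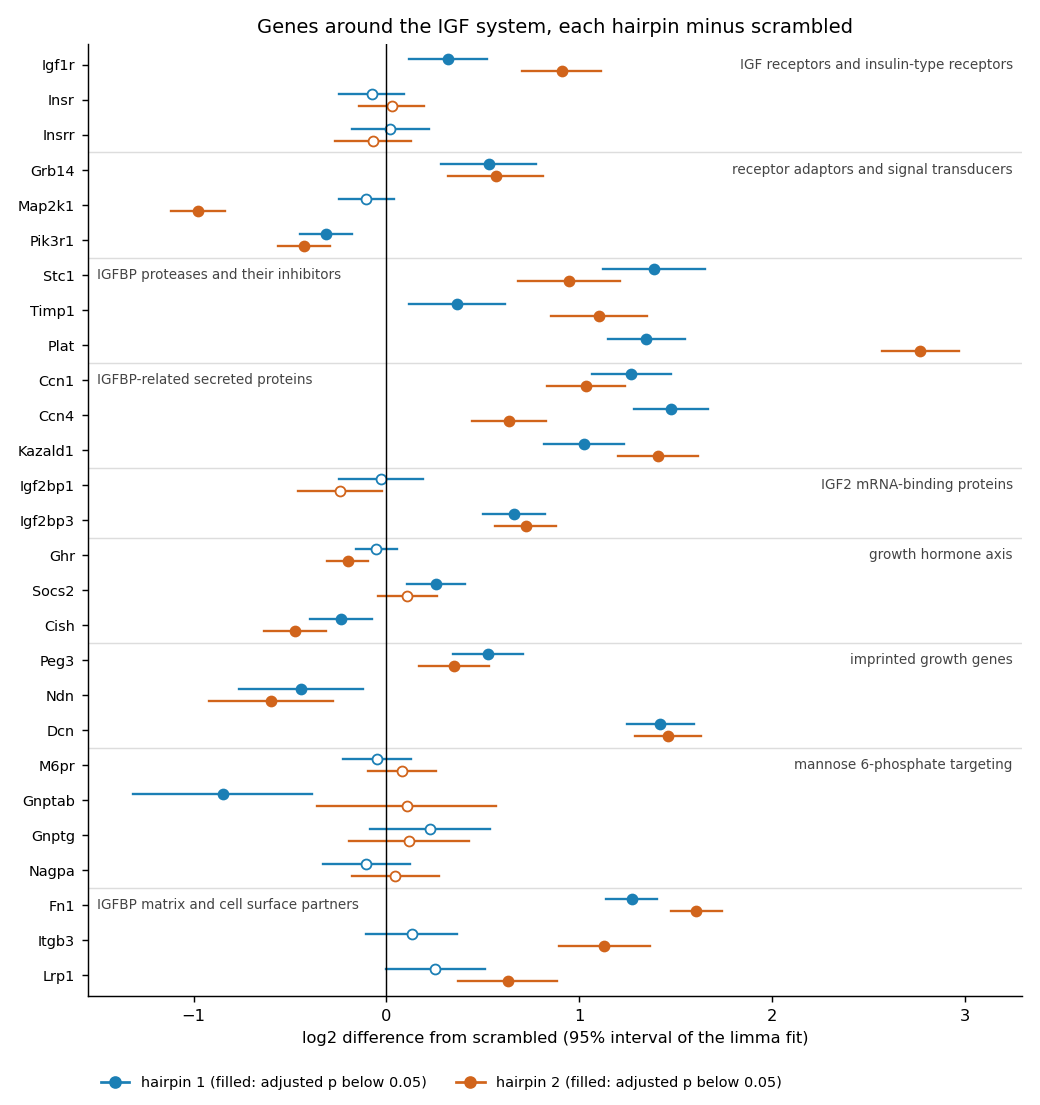
Log2 difference from scrambled of the named genes around the IGF system, with the 95% interval of the limma fit; filled points have an adjusted p below 0.05 and grey lines part the gene lists. Plat lies farthest to the right with hairpin 2 at 2.77, Igf1r and Timp1 are higher with hairpin 2 than with hairpin 1, and the intervals of the insulin receptor genes include 0.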

How the data were processed

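Per the labels' protocols, RNA of 3T3-L1 cells was amplified with a NuGEN kit and given a biotin label. Gene names come from the platform's probe table, which lists an Affymetrix mouse array. The deposited table holds log2 values that the authors computed with RMA, per the submitters' processing notes, with no version given. RMA equalizes arrays, which can hide a shift shared by most genes. The deposited arrays were not fully equal, with medians from 6.31 to 6.38. Over all genes tested the median difference with hairpin 1 was 0.07, and 0.009 after quantile normalization. What this remaining offset reflects was not tested. Of 45101 probe sets, 64 controls were left out, 34945 name 1 gene symbol and 932 name several, per the platform's table.

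Each of 18193 genes was read by its brightest probe set on average, and genes were tested where that mean reached the 30th percentile (5.72), which left 12735. A model with 3 group means over all 9 arrays was fitted with limma 3.58.1 in R 4.3.3 (lmFit, eBayes with trend), with 4 contrasts and two-sided p-values adjusted by Benjamini-Hochberg over all genes tested. A call is an adjusted p below 0.05. A second fit covered all 45037 probe sets with no filter. The steps were tested on simulated data. Fold changes are antilogs of log2 differences, and levels of different probe sets are not compared.

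The members and the 9 pathway and 6 cell lists were chosen with earlier results of these data known. The text names all 10 members, Ebf1, the 3 genes of each pathway list that had the lowest p in the contrast of both hairpins averaged (all genes of a list of 4 or fewer), and the 2 genes most correlated with each called member. Genes outside this rule are said to be named after their values were seen. Skeletal muscle, hepatocyte, endothelial and leukocyte lists were also read: of 3 muscle markers tested 2 were higher and 1 lower with hairpin 1, and 1 higher with hairpin 2; of 3 hepatocyte and 2 endothelial markers 0 were called; of 5 leukocyte markers 0 were higher and 1 lower with hairpin 1, and 1 was higher and 1 lower with hairpin 2. Promoter windows come from RefSeq (GRCm38.p6). Protein sequences were not used here. The alternatives are listed in the closing section, and 3 arrays per group limit the precision.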

Additional observations from a re-analysis of the deposited data

Results flagged for a closer look

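For 5 genes the effect of the 2 hairpins differed by a limma test of hairpin 2 against hairpin 1, adjusted over all genes tested. Hairpin 2 was lower than hairpin 1 by -0.57 log2 units for Igf2, -0.55 for Igfbp5, -0.30 for Igfbp6, -0.26 for Igf1 and -0.18 for Igfbp4. For Igf2 and Igfbp6 both hairpins were above the control and hairpin 1 was further from it. On their brightest probe sets Igf1 and Igfbp5 were called lower than the control with hairpin 2 and not with hairpin 1. On the second Igfbp5 probe set, 1452114_s_at, hairpin 2 was instead higher than hairpin 1, by 0.62. With all probe sets of each gene averaged, 2 of the 5, Igf2 and Igfbp6, were called lower. Igfbp6 has only 1 probe set, so averaging could not change its value. The differences of Igf1 and Igfbp5 turned to 0.035 (adjusted p = 0.728) and 0.034 (adjusted p = 0.83). The Igfbp4 call was lost in 8 of 18 alternatives. That of Igfbp6 was lost without hairpin 1 array 3 (adjusted p = 0.0827) or hairpin 2 array 1 (0.0526). In the fit over all probe sets the Igfbp6 call was lost in most alternatives.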

How the results depend on the processing

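The limits are 3 arrays per group, probe sets that differ within a gene, and signals near the floor (Igfbp1, Igfbp2 and Igfbp3) or the maximum (Igfbp7). The alternatives were the mean of all probe sets, no filter or a filter at the 50th percentile, quantile normalization, equal array medians, array weights, no variance trend, only the groups compared, the replicate block and leaving out each array. Those for probe sets and for genes outside the members were chosen after seeing the data. Over the tested members 462 of 493 values under these alternatives kept their side of the threshold without reversing, 25 lost a call, 4 gained one and 2 reversed. The 462 include 13 that changed sign while uncalled before and after.

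With the mean of all probe sets the members called lower were 0 with hairpin 2 and 0 in the mean of both hairpins, and 2 in hairpin 2 against hairpin 1, where Igf1 reversed to 0.035 and Igfbp5 to 0.034. Over all genes tested 1705, 1296 and 2018 were lower in that setting, against 1690, 1369 and 2219 in the main fit. The 2 members were Igf2 and Igfbp6, and Igfbp6 has only 1 probe set to average. Igf2bp1 reversed in the same setting, to 0.28 with hairpin 1 and 0.17 in the mean of both. Array weights gave 1 member lower with hairpin 1, and equal medians 1 member higher in hairpin 2 against hairpin 1. Over all genes tested these counts were 2222 and 1752, against 1176 and 1483 in the main fit. Over the 24 probe sets, those higher with hairpin 1 numbered 5 with quantile normalization and 4 with equal medians, with no trend and with only the groups compared; those lower numbered 2 with quantile normalization and 1 with array weights. In the mean of both hairpins 9 were higher with array weights and 1 lower with no trend. In hairpin 2 against hairpin 1, 3 were higher with quantile normalization and 2 with equal medians. Over all probe sets, 6954 were higher in the mean of both with array weights, against 5065 in the main fit. With hairpin 1, array weights gave 11 of the 24 and 7564 of all higher, against 8 and 4695 in the main fit. All probe sets higher with hairpin 1 numbered 3822 with quantile normalization, 3832 with equal medians, 4555 with no trend and 4486 with only the groups compared. The cause was not tested.

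Leaving out each array gave 3 to 4 members higher and 0 to 1 lower with hairpin 1, 2 to 3 higher with hairpin 2, and 3 to 5 lower in hairpin 2 against hairpin 1. Over all genes tested, those higher with hairpin 1 numbered 2215 to 4085 in the same fits. The member probe sets higher numbered 3 to 10 with hairpin 1, 4 to 7 with hairpin 2, 4 to 9 in the mean of both and 1 to 2 in hairpin 2 against hairpin 1. Those lower numbered 1 to 3 in the mean of both and 2 to 7 in hairpin 2 against hairpin 1. Calls over all probe sets moved in these fits too. Without hairpin 1 array 1, where 10 members were higher with hairpin 1, 7189 of all probe sets were. Without hairpin 1 array 3, where 3 members were higher, 3079 of all were. In hairpin 2 against hairpin 1, 5490 of all were lower without hairpin 1 array 1, where 7 members were. With the replicate block, members called were 4 higher and 0 lower with hairpin 1, 3 and 2 with hairpin 2, and 0 and 5 between the hairpins, the counts found without it. Over the 24 probe sets the block gave 7 higher with hairpin 1, 6 higher with hairpin 2, 5 higher in the mean of both hairpins and 3 lower in hairpin 2 against hairpin 1, where the fit without it gave 8, 7, 4 and 4. Under the block the adjusted p was 0.0528 for 1415931_at of Igf2 with hairpin 1, and for 1417933_at of Igfbp6 it was 0.0643 with hairpin 2 and 0.0629 between the hairpins. That of 1423756_s_at of Igfbp4 in the mean of both hairpins was 0.0316. The labels give the groups the same repeat numbers but do not say what they share: deviations from group means correlated at -0.29 to 0.25 over the 9 same-numbered pairs, 3 of them above 0.1, and not every array correlated best with its own number.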

Other observations

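The IGF2 receptor also carries enzymes tagged with mannose 6-phosphate, and 4 other genes of that route were measured. M6pr, the smaller mannose 6-phosphate receptor, read 12.07 ± 0.02 with scrambled, 12.02 ± 0.21 with hairpin 1 and 12.15 ± 0.06 with hairpin 2, and was not called. Gnptg, a subunit of the tagging enzyme, and Nagpa, which finishes the tag, differed by 0.23 and -0.10 with hairpin 1 and 0.12 and 0.05 with hairpin 2, none called. Without hairpin 1 array 1 the hairpin 1 difference of Gnptg was called (0.40, limma adjusted p = 0.0215, range 0.00345 to 0.649). Gnptab, the other subunit, was lower by -0.85 with hairpin 1 (adjusted p = 0.00708), where its arrays had an SD of 0.68, and differed by 0.11 with hairpin 2. That call was lost without hairpin 1 array 2 (-0.67, adjusted p = 0.0541, range 1.5e-07 to 0.0541), and averaging probe sets gave -0.26. Of these 4 genes 0 were called higher with either hairpin.

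Of 9 matrix and cell surface partners of IGFBPs tested, 3 were higher and 0 lower with hairpin 1, and 4 higher and 1 lower with hairpin 2, with medians of 0.16 and 0.13. Fn1, the fibronectin gene, rose by 1.27 and 1.61 (limma adjusted p = 7.07e-10 and 8.88e-12). Itgb3, an integrin subunit gene, differed by 0.13 with hairpin 1 and rose by 1.13 with hairpin 2 (adjusted p = 7.21e-07), or 0.67 with probe sets averaged. Lrp1, a receptor that binds IGFBP3, differed by 0.25 with hairpin 1 (adjusted p = 0.121) and rose by 0.63 with hairpin 2 (adjusted p = 0.000635). Without hairpin 1 array 1 the hairpin 1 difference of Lrp1 was called (0.37, adjusted p = 0.0201, range 0.00108 to 0.357). Itgav, the integrin subunit that pairs with Itgb3 and is named after its value was seen, rose by 0.65 with hairpin 1 and fell by 0.31 with hairpin 2 (adjusted p = 1.19e-06 and 0.00111), or 0.26 and -0.18 with probe sets averaged.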
